A study of Mus musculus with 16 samples.

Results

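The amino acid transporters described here are the mouse solute carrier genes whose symbols begin with Slc1a, Slc3a, Slc6a, Slc7a, Slc36a, Slc38a or Slc43a, with Slc7a11 and Slc7a2 left out. They were found by matching the RefSeq accession that the array files give for each probe to a current mouse symbol, and no measured value entered the choice. The rule took 77 of the 39429 probes on the array, and 60 of the 20659 genes that could be named. Of the 60, 1 gene, Slc7a6os, takes its symbol from its neighbour Slc7a6 and is not a transporter, which leaves 59 carrier genes. Of 65 symbols of these families in the reference table, 5 had no probe that could be named, and they were the coding genes Slc6a5 and Slc6a16 and the antisense transcripts Slc36a1os, Slc36a3os and Slc6a19os.

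The study profiled macrophages derived in culture from mouse stem cells, with 4 arrays for each of 4 groups. The control cells were untreated and were collected at 0 h. The other groups were exposed for 8 h to heme-albumin (heme carried on albumin, the plasma protein that binds it after hemolysis) at 50 µM or 200 µM, or to LPS (bacterial lipopolysaccharide, the ligand of Toll-like receptor 4) at 10 ng/mL, so no untreated 8 h sample was analysed here. In every comparison with control, treatment and 8 h of culture therefore cannot be told apart. No group received albumin alone, so heme and its carrier cannot be told apart either. On each array the sample was labelled red and untreated reference RNA green, the control arrays carried untreated RNA in both colours, and the dyes were not swapped. The labels give no strain, sex or genotype, and they do not say whether the 4 arrays of a group came from separate cultures. The titles add a further code to each of the letters a to d, the same in all 4 groups, whose meaning they do not give, so the p-values measure only the spread between these arrays.

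Cells cannot make all amino acids, and families of membrane carriers bring them in, exchange them and move them out of lysosomes. The Slc7 light chains exchange large neutral or cationic amino acids and reach the cell surface bound to a heavy chain of the Slc3 family. The remaining Slc7 members belong to the cationic type, which works without a heavy chain and includes arginine uptake routes. Slc1 members carry glutamate or small neutral amino acids, Slc38 members carry glutamine and other neutral amino acids, Slc36 and some Slc38 members act on lysosomes, and Slc43 members include facilitated carriers of large neutral amino acids. The Slc6 family uses the sodium and chloride gradients and carries glycine, proline, GABA, betaine and taurine, but also creatine and serotonin. In macrophages these carriers are best known for supplying arginine and glutamine during activation.

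Each value below is the log2 of the deposited ratio of red over green, so that 0 means equal signal in sample and reference, and a change is the difference between the means of 2 groups of 4 arrays. A change was called when its adjusted p from limma, over the 12759 genes tested, was under 0.05 and it reached 2-fold. A gene was tested when one of its probes was well above background in red, by the scanner software's own flag, on all 4 arrays of at least 1 group. Processed red signals are given without scaling. Their general level differed between groups, so they show how bright a probe was and do not measure a change. All 8 macrophage markers looked up were above background in red on all 16 arrays, and all 4 mast cell markers were above it on none. The pluripotency list was mixed. Pou5f1, Sox2 and Zfp42 were above background on no array, Dppa5a on 4, and Nanog and Tdgf1 on all 16. Other lists were mixed: the neutrophil list had 2 of 5 genes above background on every array, the endothelial list 2 of 4, the neuron and glia list 2 of 5 (Snap25 and Aqp4), and the fibroblast gene Dcn was above background on the 4 LPS arrays only. The part of such cells in the results was not tested, and in bulk RNA fewer cells of a type and less RNA per cell cannot be told apart. Each group occupied the same array position on all 4 slides, so position and group cannot be told apart. Arrays a and b were scanned on a first day and c and d on a second, with all 4 groups on both days. Each letter also has its own slide and its own title code. A difference between scan days below therefore cannot be told apart from one between slides or title codes.

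Of the 60 genes, 32 could be tested. Of these, 25 were above background in red on all 16 arrays. Among them were the heavy chain Slc3a2; the light chains Slc7a5, Slc7a7 and Slc7a8; the cationic type genes Slc7a1 and Slc7a4; Slc1a4 and Slc1a5; all 6 tested Slc38 genes; Slc36a1 and Slc36a4; Slc43a2 and Slc43a3; the Slc6 genes Slc6a6, Slc6a8, Slc6a9, Slc6a13 and Slc6a20a; and Slc7a6os. The other 7 tested genes, Slc1a2, Slc6a4, Slc6a12, Slc6a19, Slc7a3, Slc7a6 and Slc36a2, were above background on fewer arrays.

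**Figure D1:**
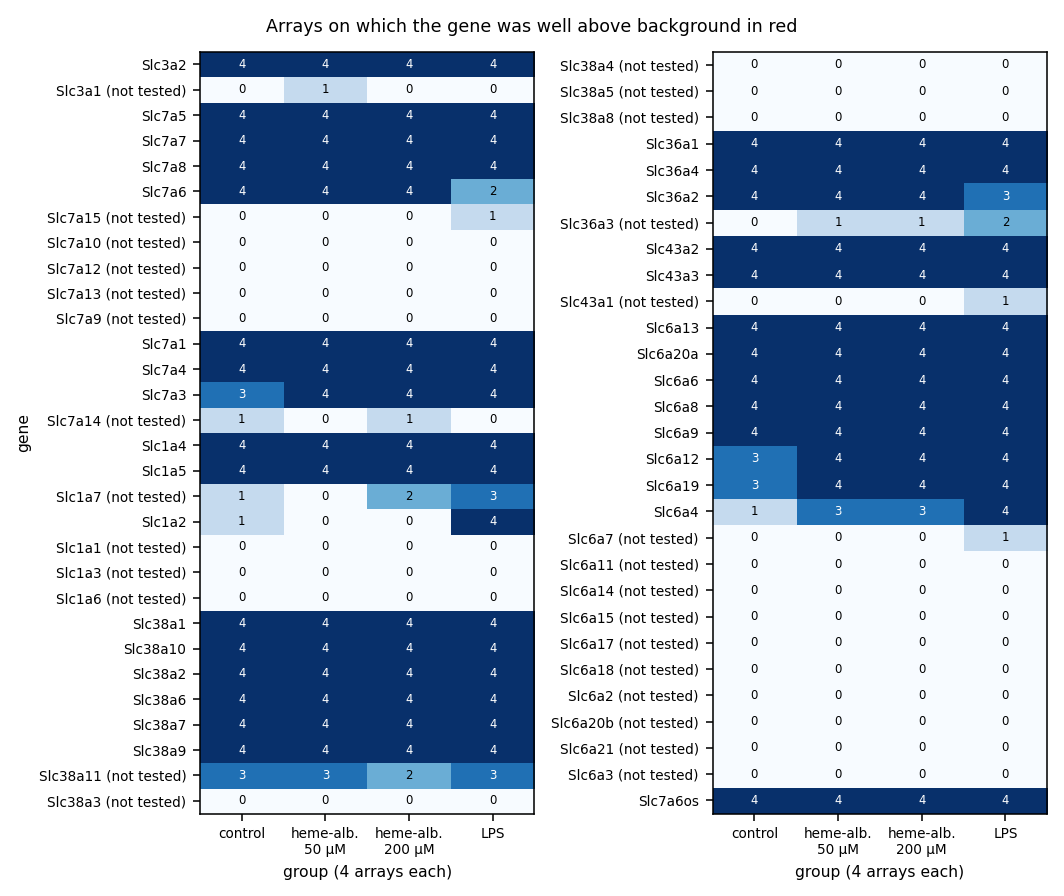
Number of arrays, out of 4 per group, on which each of 59 of the 60 genes was well above background in red, for the probe that stands for the gene. Most genes read 4 in all groups or 0 in all groups, Slc1a2 and Slc6a4 reach 4 in the LPS group only, and Slc7a6 and Slc36a2 drop below 4 there.

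A further 8 genes were seen on some arrays but never on all 4 of a group and were not tested: Slc1a7, Slc3a1, Slc6a7, Slc7a14, Slc7a15, Slc36a3, Slc38a11 and Slc43a1. Slc38a11 came closest, with 3 control, 3 heme-albumin 50 µM, 2 heme-albumin 200 µM and 3 LPS arrays above background. The remaining 20 genes were above background on no array. By family, 9 of 19 Slc6 genes, 8 of 14 Slc7 genes, 6 of 11 Slc38 genes, 3 of 7 Slc1 genes, 3 of 4 Slc36 genes, 2 of 3 Slc43 genes and 1 of 2 Slc3 genes were tested. Slc1a1 and Slc1a3, which carry glutamate, and the dopamine and noradrenaline carriers Slc6a3 and Slc6a2 were among those not above background. This describes these probes at this signal and does not show that a gene is silent.

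The genes above background on fewer arrays passed the filter through the group in which they were high, so their counts are given apart from the rest. Slc1a2 and Slc6a4 were each above background on 4 LPS arrays and on 1 control array. The scanner software writes a ratio of exactly 0 where neither colour was measured, and none of the spots with a ratio of 0 was well above background in red on any array. Slc1a2 has such zeros on 3 control, 2 heme-albumin 50 µM and 4 heme-albumin 200 µM arrays, and Slc6a4 on 1 array of each of these groups.

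Promoter windows from RefSeq (build GRCm38.p6, 250 bases before and 50 after the start site) were at hand for 43 of the 60 genes and 22 of the 32 tested. They were searched on both strands for 4 sets of letters: TGATGNAA, the amino acid response element bound by Atf4 complexes; GGG, any 2 bases and TTTCC for NF-kB; TGACNNNGC for the antioxidant response element; and TCACGTG, the E-box of lysosomal genes. The first occurred in 3 of the 43 member genes, which is 6.98%, against 4.51% of the 27025 genes of the table. Of the tested genes it was found in Slc1a4 and Slc7a7, both called higher after LPS, as were 14% of all genes tested. The NF-kB letters occurred in 2 members, Slc6a12 and Slc6a13, which is 4.65% against 1.89% of all genes. The antioxidant letters occurred in 8 members (18.6% against 14% of all genes). Of these, Slc6a9, Slc6a13 and Slc7a1 were called at 200 µM heme-albumin, where 3.03% of all genes tested were. Slc36a1, Slc38a2 and Slc7a6 were tested and not called there, and Slc43a1 and Slc6a11 were not tested. After LPS, Slc7a1 was called higher and Slc38a2 and Slc7a6 lower, where 30.7% of all genes tested were called. The E-box letters occurred in 4 members (9.3% against 4.29%), including the lysosomal carriers Slc36a1 and Slc38a7. In Slc36a1 an E-box match and the antioxidant match share letters. A match is a description of these letters in this window, and genes with several start sites have more windows in which to match. The windows of 5 called genes are printed with the matched letters in capitals, each on the gene's own strand.
Slc1a4, amino acid response element, chr11:20332664-20332963, minus strand: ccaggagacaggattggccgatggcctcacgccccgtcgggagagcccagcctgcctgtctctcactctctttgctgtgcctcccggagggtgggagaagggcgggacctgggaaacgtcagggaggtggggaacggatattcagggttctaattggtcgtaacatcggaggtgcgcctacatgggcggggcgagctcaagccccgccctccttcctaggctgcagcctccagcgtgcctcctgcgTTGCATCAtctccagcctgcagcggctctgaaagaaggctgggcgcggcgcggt
Slc7a7, amino acid response element in 2 places, chr14:54417895-54418194, minus strand: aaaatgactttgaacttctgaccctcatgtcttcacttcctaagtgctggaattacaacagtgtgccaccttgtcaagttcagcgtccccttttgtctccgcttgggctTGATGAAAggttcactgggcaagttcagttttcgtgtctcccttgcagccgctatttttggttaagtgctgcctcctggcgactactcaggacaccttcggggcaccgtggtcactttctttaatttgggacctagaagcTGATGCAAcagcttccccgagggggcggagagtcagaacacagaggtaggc
Slc6a12, NF-kB, chr6:121342324-121342623, plus strand: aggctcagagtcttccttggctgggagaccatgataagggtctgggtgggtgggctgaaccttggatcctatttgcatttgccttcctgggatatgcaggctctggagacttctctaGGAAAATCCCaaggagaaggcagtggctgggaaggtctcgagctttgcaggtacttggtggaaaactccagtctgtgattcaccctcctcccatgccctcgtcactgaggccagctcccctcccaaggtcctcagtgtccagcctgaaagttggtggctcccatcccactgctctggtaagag
Slc6a9, antioxidant response element, chr4:117849100-117849399, plus strand: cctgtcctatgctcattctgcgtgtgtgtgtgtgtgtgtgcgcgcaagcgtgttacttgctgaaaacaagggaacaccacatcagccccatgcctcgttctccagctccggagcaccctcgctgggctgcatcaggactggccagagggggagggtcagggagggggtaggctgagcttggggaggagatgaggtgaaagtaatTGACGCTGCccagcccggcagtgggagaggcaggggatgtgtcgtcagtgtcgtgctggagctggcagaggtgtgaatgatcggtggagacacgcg
Slc7a1, antioxidant response element, chr5:148399855-148400154, minus strand: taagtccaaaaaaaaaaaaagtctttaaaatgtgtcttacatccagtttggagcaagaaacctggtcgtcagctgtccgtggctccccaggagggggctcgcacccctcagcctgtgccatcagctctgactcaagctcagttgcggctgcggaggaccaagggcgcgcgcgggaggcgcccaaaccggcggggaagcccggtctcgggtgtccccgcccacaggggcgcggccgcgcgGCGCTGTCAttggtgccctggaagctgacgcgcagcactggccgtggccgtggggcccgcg

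After LPS, the heavy chain Slc3a2, the light chains Slc7a5, Slc7a7 and Slc7a8, the cationic type genes Slc7a1 and Slc7a3, the small neutral amino acid carrier Slc1a4 and the betaine carrier Slc6a12 rose. Slc1a2 and Slc6a4 were called higher as well, against control signals near background. Slc36a2, Slc7a4, Slc43a2, Slc7a6, Slc38a2 and the creatine carrier Slc6a8 fell. The question here is how the transporter set differed between 8 h of LPS and the 0 h controls. Of the 32 genes tested, 16 were called, 10 higher and 6 lower, where 30.7% of all genes tested were called (14% higher and 16.7% lower). Among the 25 genes above background on all 16 arrays, 10 were called, 6 higher and 4 lower, where 28% of all such genes were called. The median change of the 32 was 0.51 against -0.089 over all genes, and the groups of arrays did not overlap for 24 of 32, where 72.3% of all genes had groups that did not overlap.

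The heavy chain and its partners come first. Slc3a2 (the CD98 heavy chain, which carries the light chains to the surface) read 1.85, 1.68, 1.30 and 1.28 on the LPS arrays and -0.05, -0.05, -0.02 and -0.07 on the control arrays, a rise of 1.58 ± 0.103 (SE, 4 against 4 arrays, limma adjusted p = 2.2e-09), or 2.98-fold. All 4 LPS arrays lie above all control arrays. Slc7a8 (a light chain for large and small neutral amino acids) read 1.85, 1.75, 1.76 and 1.60 after LPS and -0.23, 0.14, -0.22 and -0.21 in the controls, a rise of 1.87 ± 0.0939 (adjusted p = 1e-10). Slc7a7 (the light chain that exports arginine and lysine in exchange for neutral amino acids) read 1.44, 1.35, 1.35 and 1.44 against -0.08, -0.09, -0.05 and -0.09, a rise of 1.47 ± 0.042 (adjusted p = 2.2e-13). Slc7a8 was 3.66-fold and Slc7a7 2.78-fold higher, with no overlap between groups.

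Slc7a5, the leucine and large neutral amino acid exchanger of activated cells, rose less evenly. The probe that stands for the gene read 0.99, 1.51, 2.02 and 1.46 after LPS and 0.06, 0.14, 0.41 and 0.15 in the controls, a rise of 1.30 ± 0.214 (adjusted p = 5.2e-05). A second, dimmer Slc7a5 probe gave 0.52 ± 0.124, which passed the adjusted p but not the 2-fold limit, and the mean of both probes was not called. Slc7a6, the light chain most like Slc7a7 in what it carries, moved the other way. It read -0.99, -1.05, -2.77 and -1.65 after LPS and 0.01, -0.08, -0.07 and 0.09 in the controls, a fall of -1.60 ± 0.297 (adjusted p = 0.00016), and 2 of its 4 LPS arrays were above background. When the ratios were rebuilt from the median signals, with another background correction (normexp) and a new loess, it gave -0.62 and was not called, nor was it with no background subtraction (-0.63) or on the first scan day alone (-0.99). This setting is the other background correction named for the genes that follow, and it changes the signal and the normalisation too. Its neighbour by symbol, Slc7a6os, changed by -0.06 (95% interval -0.20 to 0.08). Thus the heavy chain and all 4 light chains tested were called, 4 of these 5 genes higher. Of all genes tested, 30.7% were called and 14% were called higher.

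The 3 cationic type genes were also all called, where 30.7% of all genes tested were. Slc7a1 (the main arginine and lysine uptake carrier of most cells) read 0.55, 0.82, 0.88 and 0.83 after LPS and -0.07, -0.35, -0.37 and -0.24 in the controls, a rise of 1.03 ± 0.173 (adjusted p = 6.9e-05). This lies just over the 2-fold limit, and the call was lost without LPS array c, without control array b or c, in the red colour alone (0.98) and on the first scan day alone (0.89). Slc7a3, a related arginine carrier, rose by 1.04 ± 0.213 from a dim signal (red 17.5 to 35.1 on the control arrays, with 3 of 4 above background), from ratios of -0.55, -0.08, -0.07 and -0.19 to ratios of 1.22, 0.98, 0.51 and 0.56. Its call was lost with another background correction (0.41) or none (0.39), in the red colour alone (0.80), on the second scan day alone (0.66), and without control array a or LPS array a or b. Slc7a4, a member whose substrate is less settled, read -2.48, -2.14, -1.87 and -1.97 after LPS against 0.00, 0.07, 0.07 and 0.03, a fall of -2.16 ± 0.0951 (adjusted p = 2.4e-11), or 4.47-fold. A second Slc7a4 probe was above background on no array. So 2 of the 3 rose and 1 fell.

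**Figure D2:**
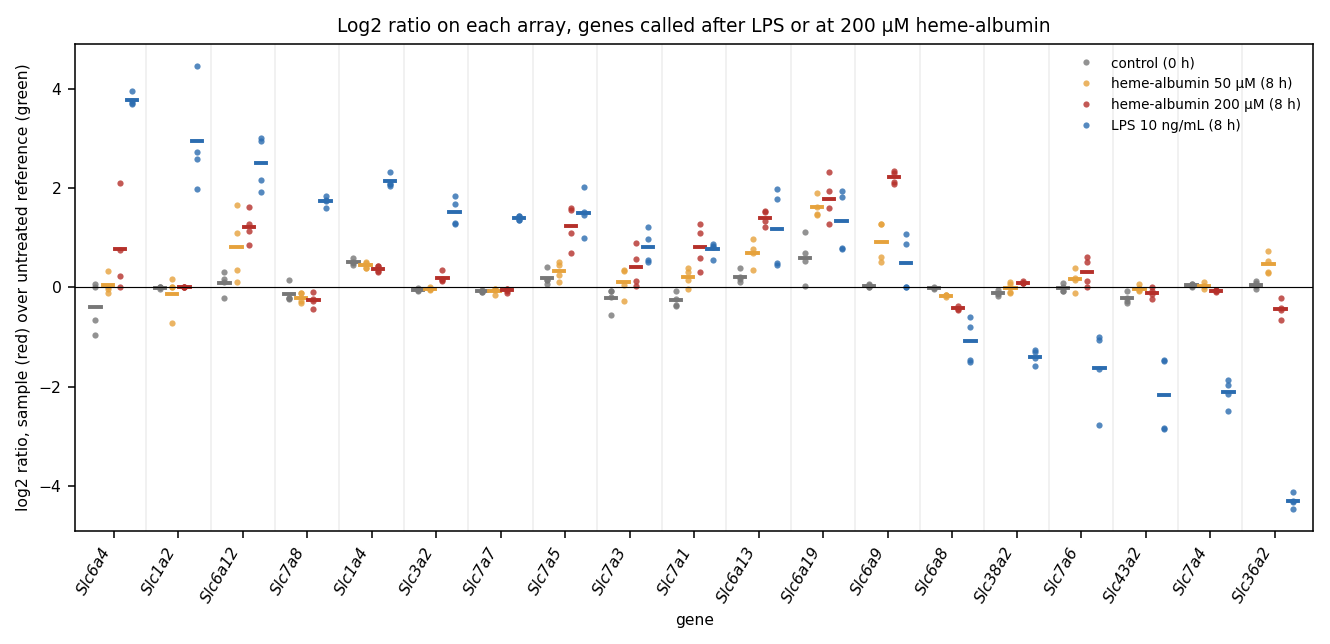
Log2 ratio of sample over untreated reference (vertical axis) on each array (points) with the group mean (bars), for the 19 genes called after LPS or at 200 µM heme-albumin, ordered by the change after LPS. The 4 LPS arrays of Slc6a4 sit between 3.69 and 3.96 and those of Slc36a2 between -4.46 and -4.13, both clear of the control arrays, and the LPS arrays of Slc43a2 fall into pairs.

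Among the Slc1 genes, Slc1a4 (a carrier of alanine, serine, cysteine and threonine) read 2.09, 2.05, 2.09 and 2.32 after LPS against 0.59, 0.51, 0.46 and 0.50 in the controls. The rise was 1.62 ± 0.0602 (adjusted p = 3.7e-12), or 3.07-fold. Its control ratios lie above 0 although both colours held untreated RNA. In the green colour, which held the same untreated reference everywhere, Slc1a4 was also 0.94 higher (log2, quantile-normalised green) on the LPS than on the control arrays, and the red colour alone rose by 2.27. Its green median signal was 6741 to 8468 on the LPS arrays and 3512 to 4486 on the control arrays. The part of this shift in the green colour was not tested. Only Slc1a4 and Slc6a4 among the 32 genes differed by more than 0.5 in green between these groups, as did 4.19% of all genes.

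Slc1a2 (a glutamate carrier best known from astrocytes) read 1.99, 4.46, 2.58 and 2.73 after LPS and between -0.04 and 0.00 in the controls, a difference of 2.95. It counts among the 16 genes called, but 3 of the 4 control values are unmeasured zeros, so its error and p are not given. The processed red signal was 51.7 to 140 after LPS and 1.99 to 13.1 in the controls, and the call was lost with another background correction (0.69) or with none (0.76). The other Slc1a2 probes were above background on no array, LPS arrays included, at red signals of at most 10.5 and 8.53. The rise thus rests on a single probe. Slc1a5, the glutamine carrier, went the other way. Its ratio was -1.06, -0.93, -0.64 and -0.69 after LPS and 0.07, -0.12, 0.09 and 0.12 in the controls, a difference of -0.87 ± 0.0998 (adjusted p = 1.3e-06) with no overlap, which is under 2-fold and so not called. A second Slc1a5 probe gave -0.96 ± 0.122.

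Of the 6 Slc38 genes only Slc38a2 was called, where 30.7% of all genes tested were. Slc38a2 (a glutamine and neutral amino acid carrier that cells raise when starved of amino acids) fell. It read -1.30, -1.27, -1.59 and -1.42 after LPS against -0.11, -0.05, -0.14 and -0.17, a fall of -1.28 ± 0.0699 (adjusted p = 2.8e-10), or 2.43-fold. Slc38a1, next to it on chromosome 15, changed by 0.11 (95% interval -0.04 to 0.27), and its other 2 probes gave 0.41 and -0.57. Slc38a9, the lysosomal carrier that reports arginine to mTORC1, gave -0.57 ± 0.0584 on its brightest probe, -0.29 on a dimmer probe and -1.44 ± 0.0763 on the remaining probe, which alone was called. Slc38a6 (0.52), Slc38a7 (0.52), the lysosomal glutamine carrier, and Slc38a10 (-0.34) passed the adjusted p without reaching 2-fold. The 3 probes of Slc38a9 share a direction, while those of Slc38a1 do not.

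In the Slc36 family, 1 of the 3 genes tested was called, where 30.7% of all genes tested were. Slc36a2, a proton-coupled carrier of glycine, alanine and proline, read -4.46, -4.13, -4.33 and -4.31 after LPS and 0.03, -0.04, 0.09 and 0.12 in the controls. That is a fall of -4.36 ± 0.107 (adjusted p = 4.4e-14), or 20.5-fold. With another background correction it was -2.63 and with none -2.72, both still called. Its processed red signal was 22.3 to 39.7 on the LPS arrays, of which 3 of 4 were above background, and 239 to 357 on the control arrays. Of its neighbours on chromosome 11, Slc36a1, the lysosomal member, was at 0.60 ± 0.149 on its brightest probe and -0.11 on another, and Slc36a3 was not tested. Slc36a4 gave 0.50 ± 0.136, and -0.13 on a second probe.

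Slc43a2, a facilitated carrier of large neutral amino acids, read -1.49, -1.47, -2.85 and -2.83 after LPS against -0.08, -0.21, -0.32 and -0.27. The fall was -1.94 ± 0.262 (adjusted p = 7.6e-06), and the 4 LPS values fall into pairs by scan day, with -1.33 on the first day and -2.54 on the second. The call held on each day. Slc43a3, which is now known as a nucleobase carrier, gave -0.15 (95% interval -0.63 to 0.33), with -0.67 on the first scan day and 0.37 on the second. Whether the days differ was not tested.

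In the Slc6 family, 3 of the 9 genes tested were called (33.3%), near the 30.7% of all genes tested. Slc6a4, the serotonin carrier, read 3.76, 3.96, 3.69 and 3.72 after LPS and 0.00, -0.66, -0.96 and 0.06 in the controls, a difference of 4.17. The first control value is an unmeasured zero. Its processed red signal was 452 to 1480 after LPS and 1.98 to 20 in the controls, where 1 array was above background. Slc6a4 counts among the 3 genes called, but it passed the filter through the LPS arrays alone. Its error and p are therefore not given, and the size of the change is not settled. It was still called with another background correction, at 2.49, and in the red colour alone, at 6.03. Slc6a12, the betaine and GABA carrier, read 3.01, 2.94, 2.17 and 1.93 against 0.10, -0.21, 0.32 and 0.18, a rise of 2.42 ± 0.319 (adjusted p = 6e-06). It was 1.41 with another background correction, 1.5 with none, 3.03 on the first scan day and 1.80 on the second, and was called in each. Slc6a8, the creatine carrier, fell by 1.08 ± 0.179 on the log2 scale (adjusted p = 0.00011), from 3 control arrays, since 1 control spot was an outlier. Its LPS arrays read -0.59, -0.80, -1.5 and -1.46, and the call was lost without LPS array c or d, with another background correction or none (-0.77 in both) and on the first scan day alone (-0.69). Slc6a13 (a GABA and taurine carrier, 0.95), Slc6a19 (a neutral amino acid carrier of gut and kidney, 0.73) and Slc6a20a (a proline carrier, 0.57) passed the adjusted p but not 2-fold. Of these, Slc6a13 was called when each array was centred on its median, at 1.02. Slc6a6 (taurine, 0.23) and Slc6a9 (glycine, 0.46) did not pass.

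By scan day, Slc6a13 was 1.69 above control after LPS on the first day and 0.22 on the second, and Slc6a9 was 0.91 and 0.00. These differences between the days were not tested either. On the second day Slc6a9 read 0.00 on both LPS arrays although it was above background there, so these are measured ratios near 0 and not the zeros of unmeasured spots. With the scan day as a block, 16 members were again called after LPS, and the adjusted p of Slc6a9 was 0.011 at 0.46, under 2-fold.

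**Figure D3:**
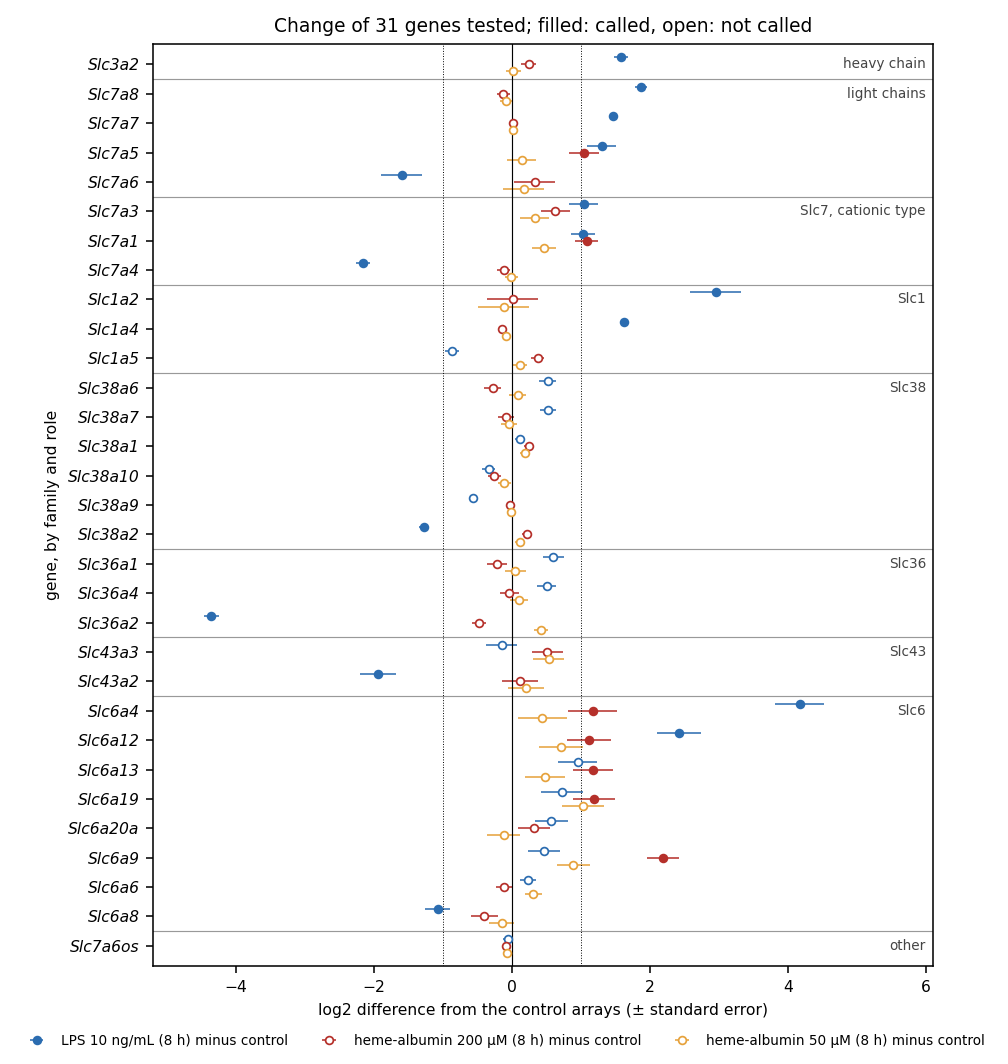
Log2 difference from the control arrays (horizontal axis, points, with standard errors) for 31 of the 32 genes tested, grouped by family and role, after LPS, 200 µM and 50 µM heme-albumin; dotted lines mark 2-fold. After LPS filled points lie on both sides of 0 from -4.36 to 4.17, while at 200 µM all 7 filled points lie on the right and at 50 µM none is filled.

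Fewer transporters were called at 200 µM heme-albumin, and all that were called were higher. The comparison sets the same genes after 8 h of a high heme load against the 0 h controls. Of the 32 genes tested, 7 were called, all higher, against 3.03% of all genes called (2.05% higher and 0.98% lower). The count was 4 without control array b or without heme-albumin 200 µM array c, and 2 with another background correction. Of the 25 genes above background on all 16 arrays, 4 were called: Slc6a9, Slc6a13, Slc7a1 and Slc7a5. Among all genes above background on all 16 arrays, 2.37% were called. The median change of the 32 was 0.065 against -0.022 over all genes, and groups did not overlap for 16, where 35.7% of all genes had groups that did not overlap. The heavy chain Slc3a2 was at 0.24 ± 0.103 (adjusted p = 0.11).

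Slc6a9, the glycine carrier, had the largest change at this dose. It read 2.35, 2.31, 2.13 and 2.08 at 200 µM, 1.27, 1.27, 0.62 and 0.51 at 50 µM, and 0.05, 0.07, 0.00 and 0.00 in the controls. The rise at 200 µM was 2.19 ± 0.234 (adjusted p = 8.9e-06), or 4.56-fold, and a second probe gave 1.99 ± 0.231. The 3 groups do not overlap, and the 2 doses differed by 1.30 ± 0.234 (adjusted p = 0.0029). At 50 µM the difference from control was 0.89 ± 0.234 (adjusted p = 0.054), which was not called. As with Slc1a4 after LPS, the green reference signal of Slc6a9 was higher as well, by 1.17 on the 200 µM arrays, with green median signals of 790 to 1451.5 against 491.5 to 589 on the control arrays. The red colour alone rose by 3.39. The part of the green shift was not tested. Slc6a9 was called in the 13 alternatives run and with each of the 8 arrays left out, with values from 1.92 to 3.39.

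Slc7a1 and Slc7a5 were called at this dose as well as after LPS, and both comparisons use the same 0 h control arrays. Slc7a1 read 0.32, 0.59, 1.27 and 1.09 at 200 µM against -0.07, -0.35, -0.37 and -0.24, a rise of 1.08 ± 0.173 (adjusted p = 0.00039). Slc7a5 read 0.69, 1.10, 1.60 and 1.55 against 0.06, 0.14, 0.41 and 0.15, a rise of 1.04 ± 0.214 (adjusted p = 0.0025), but its second probe gave -0.06 ± 0.124. Both genes were higher on arrays c and d than on a and b, with Slc7a1 at 0.66 on the first scan day and 1.49 on the second. Neither call held without heme-albumin 200 µM array c or d. The other tested members of the light chain and cationic groups were not called, and Slc7a7 (0.02) and Slc7a8 (-0.13) stood near 0.

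The remaining 4 calls were all Slc6 genes with dim signals, so that 5 of 9 Slc6 genes tested were called, where 3.03% of all genes were. The 5 include Slc6a4, which passed the filter through the LPS arrays alone. Slc6a13 read 1.53, 1.51, 1.34 and 1.21 against 0.21, 0.16, 0.40 and 0.11, a rise of 1.17 ± 0.288 (adjusted p = 0.0086), from a red signal of 33.5 to 38.9 to one of 104 to 114. Slc6a12, its neighbour on chromosome 6, read 1.63, 0.85, 1.27 and 1.13 against 0.10, -0.21, 0.32 and 0.18 (1.12 ± 0.319, adjusted p = 0.020), at red signals of no more than 60.4. Slc6a19 read 1.95, 1.60, 2.33 and 1.27 against 0.54, 0.02, 0.69 and 1.12 (1.19 ± 0.304, adjusted p = 0.011). For Slc6a4 the groups overlapped: it read 0.00, 2.11, 0.76 and 0.23 against 0.00, -0.66, -0.96 and 0.06, a difference of 1.17. The first value in each group is an unmeasured zero, so its error and p are not given. With another background correction these 4 genes gave 0.25, 0.15, 0.04 and 0.07, with 0.47 for Slc7a5, and none of the 5 was called, nor with no subtraction. In the red colour alone Slc6a4, Slc6a12 and Slc7a5 were not called. Slc6a4, Slc6a12 and Slc6a19 were also lost without control array b and on the second scan day alone, and Slc6a4 and Slc7a5 on the first.

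**Figure D4:**
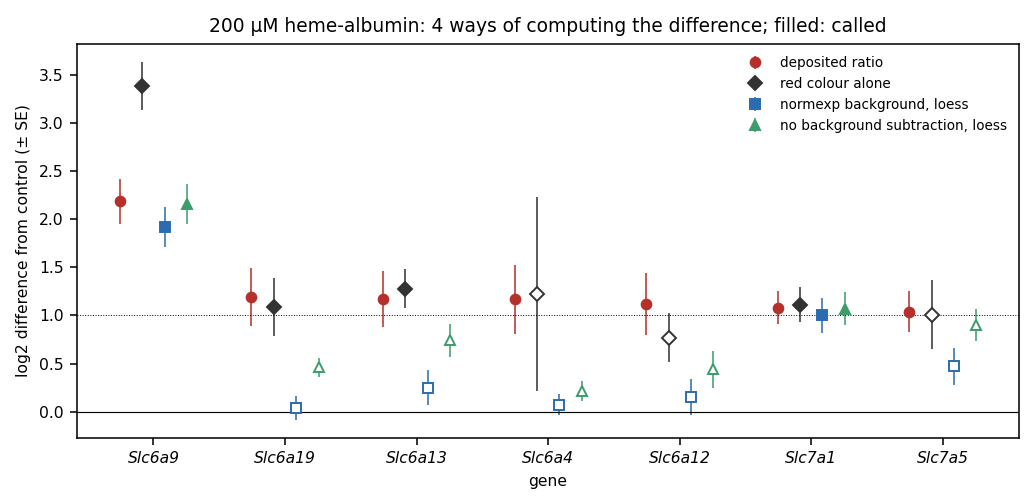
Log2 difference between 200 µM heme-albumin and control (vertical axis, with standard errors) for the 7 genes called, computed from the deposited ratio, the red colour alone, and the median signals with normexp or no background subtraction; filled points were called and the dotted line marks 2-fold. Slc6a9 and Slc7a1 are filled in all 4, while Slc6a4, Slc6a12 and Slc7a5 are filled only for the deposited ratio.

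No transporter fell past 2-fold at 200 µM. Slc36a2 gave -0.48 ± 0.107 (adjusted p = 0.0044), with -0.22, -0.41, -0.66 and -0.45 against 0.03, -0.04, 0.09 and 0.12, a change that passed the adjusted p only. At 50 µM the same gene read 0.74, 0.53, 0.29 and 0.32 and was higher than control by 0.42 ± 0.107 (adjusted p = 0.044). The 2 doses thus lay on opposite sides of the control, and they differed from each other by -0.91 ± 0.107 (adjusted p = 9.3e-05), just short of 2-fold. Other members with an adjusted p under 0.05 at 200 µM without reaching 2-fold were Slc1a5 (0.37), Slc7a3 (0.63), Slc38a1 (0.24) and Slc38a2 (0.21). Slc6a8, from 3 control and 3 treated arrays, gave -0.40 ± 0.191 (adjusted p = 0.16).

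At 50 µM limma called 0 of the 32 genes, where 0.368% of all genes were called (0.29% higher and 0.0784% lower). At an unadjusted p under 0.05 there were 8, all higher, which is 25% against 13.6% of all genes, and a plain linear model without moderation gave 7 and also called 0. The largest differences were Slc6a19 at 1.03 ± 0.304 (adjusted p = 0.096) and Slc6a9 at 0.89. Slc6a19 read 1.48, 1.46, 1.91 and 1.63 against 0.54, 0.02, 0.69 and 1.12 in the controls, with no overlap. With the array letter, which marks the slide, as a replicate block Slc6a19 was called (adjusted p = 0.037). Without heme-albumin 50 µM array d the count was 1 as well, with Slc6a9 called at 1.02 (adjusted p = 0.045). Between the doses, 1 of 32 was called, Slc6a9, where 0.831% of all genes were called (2 of 32 without heme-albumin 200 µM array a, with Slc7a5 at 1.09), and Slc7a5 (0.90, adjusted p = 0.018), Slc7a1 (0.61, adjusted p = 0.045) and Slc36a2 passed the adjusted p alone. The second Slc7a5 probe gave 0.17 ± 0.124 between the doses.

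The direct comparison of 200 µM heme-albumin with LPS called 14 of 32 genes, 7 higher with heme-albumin and 7 lower, where 30.3% of all genes were called (16.8% higher and 13.6% lower). Groups did not overlap for 20 of the 32, and for 70.7% of all genes. This comparison shares the LPS arrays with that of LPS and control. Slc1a2 was lower with heme-albumin, where it was above background on no array. Its LPS signal was 3.03-fold over the lowest red signal above background on the heme-albumin arrays. Also lower with heme-albumin were Slc1a4 (-1.76 ± 0.0602), Slc3a2 (-1.33 ± 0.103), Slc6a4 (-3.01), Slc6a12 (-1.29), Slc7a7 (-1.46) and Slc7a8 (-2.0). Higher were Slc36a2 (3.87 ± 0.107), Slc43a2 (2.05), Slc7a4 (2.04), Slc7a6 (1.93), Slc6a9 (1.73), Slc38a2 (1.49) and the glutamine carrier Slc1a5 (1.24 ± 0.0998, adjusted p = 2.5e-08), which was called in this comparison alone. With another background correction or none, the calls of Slc7a6 (0.68 and 0.84) and Slc1a2 (-0.63 and -0.64) were lost, and Slc36a2 was 2.30 and 2.34 and still called. The 3.03-fold given for Slc1a2 thus does not hold in these settings, where its change was under 2-fold. Slc3a2 was not called in the red colour alone (-0.86), nor Slc6a12 on the second scan day alone (-0.85). On the probes that stand for them, Slc7a1 differed by 0.05 (95% interval -0.32 to 0.42) and Slc7a5 by -0.26 (95% interval -0.72 to 0.20). A difference of more than 2-fold lies outside both intervals. A second Slc7a5 probe gave -0.58 ± 0.124 (limma adjusted p = 0.00065), lower with heme-albumin but under 2-fold.

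**Figure D5:**
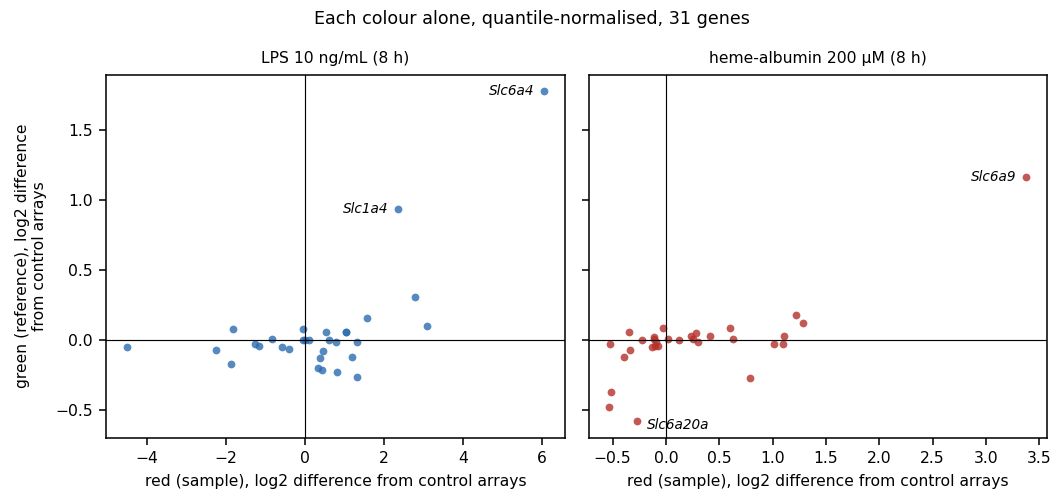
Difference from the control arrays in the red colour (sample, horizontal axis) and in the green colour (reference, vertical axis), each quantile-normalised on the log2 scale, for 31 of the 32 genes after LPS (left) and at 200 µM heme-albumin (right). Most points lie along 0 in green, and named are those beyond 0.5: Slc6a4 at 1.78 and Slc1a4 at 0.94 after LPS, and Slc6a9 at 1.17 and Slc6a20a at -0.58 at 200 µM.

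The processed red signal itself could not be set against that of another group without scaling. Over the probes kept, its median was 436 to 539 on the control arrays, 508 to 670 at 50 µM, 561 to 643 at 200 µM and 1000 to 1320 after LPS. Slc7a6os had red signals of 569 to 697 in the controls and 1170 to 1840 after LPS at a change in ratio of -0.06. Slc38a1 likewise had red signals of 2630 to 3910 and 7590 to 10200 at a change in ratio of 0.11. The taurine carrier Slc6a6, at a red signal of 15900 to 59900 over all arrays, changed by 0.23 after LPS, -0.11 at 200 µM and 0.31 at 50 µM. After quantile normalisation of the red colour alone, 4 of the 7 genes called at 200 µM were called.

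There were 12 genes called in none of the 5 comparisons, among them Slc36a1, Slc36a4, Slc38a1, Slc38a6, Slc38a7, Slc38a9, Slc38a10, Slc43a3, Slc6a6, Slc6a20a and Slc7a6os. The 12 include 5 of the 6 Slc38 genes tested, with the lysosomal carriers Slc38a7 and Slc38a9, and the lysosomal Slc36a1. This holds for the probe that stands for each gene. Another Slc38a9 probe was called after LPS (-1.44 ± 0.0763) and was higher at 200 µM heme-albumin than after LPS (1.68 ± 0.0763, called). Slc6a20a read 0.05, 0.02, 0.96 and 1.22 at 200 µM, at red signals of no more than 60.6, with low ratios on the first scan day and high ones on the second. Its green median signals on these arrays were 131 and 123.5 on the first day and 77 and 75 on the second. The red median signals were 209 and 189.5, then 118 and 125, so both colours were lower on the second day. The part of the green colour was not tested. Not being called does not show that a level was the same.

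Genes that work beside these carriers were looked up from 4 lists. Of 17 other amino acid and peptide transporters tested, 5 were called after LPS, 3 higher and 2 lower, with the lysosomal histidine and peptide carrier Slc15a3 at 3.09, the mitochondrial glutamate carrier Slc25a22 at 2.30 and the mitochondrial aspartate and glutamate carriers Slc25a12 at 1.79 and Slc25a13 at -1.95. Of 35 genes of amino acid sensing by mTORC1, 8 were called after LPS and 7 of them were lower, led by the GTPase gene Rragb at -3.09, the leucine sensor gene Sesn1 at -2.10 and the arginine sensor genes Castor1 at -1.45 and Castor2 at -1.43. Wdr59, named here because it alone was called higher, was at 1.27. Of 22 amino acid response genes outside transport, 10 were called after LPS, 9 of them higher, led by the stress gene Nupr1 at 2.78, the transcription factor Cebpb at 2.75, the glutathione-degrading enzyme Chac1 at 2.35 and the cysteine-forming enzyme Cth at 1.76. Of 20 cytosolic aminoacyl-tRNA synthetases, 2 were called after LPS, Wars at 2.11 and Rars at 1.63. The list shares called were 29.4%, 22.9%, 45.5% and 10% in that order, beside 30.7% of all genes, and the medians were 0.29, -0.35, 0.66 and -0.071 beside -0.089. At 200 µM heme-albumin 1 gene of all 4 lists was called, where 3.03% of all genes were, Chac1 at 1.88 ± 0.157 (limma adjusted p = 7.7e-07), and the medians were -0.12, -0.056, 0.41 and 0.20, in the order of other transporters, mTORC1 sensing, amino acid response and synthetases, beside -0.022 over all genes.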

How the data were processed

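Stem cell derived macrophages were profiled on 16 Agilent 2-colour arrays (4 groups of 4). Per the file headers, the authors' deposited log10 ratios of red over green come from Agilent Feature Extraction 10.7.3.1 after background subtraction and dye normalisation by linear and lowess steps. The authors took them into JMP Genomics 5.1 unscaled, per the labels. The deposited series table held the same log10 values (largest difference 0, column medians 0). The deposited processed and median signals are intensity values per spot, per the file headers. No spot was saturated, 188 to 690 outlier spots per array were left out, and 49.9% to 59.4% of probes were above background in red. The number of arrays limits the precision.

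The deposited ratios were turned into log2 and averaged over the spots of a probe. A mean per group was estimated by limma (version 3.58.1, under R 4.3.3) from all 16 arrays without a block, with Benjamini-Hochberg adjustment over 12759 genes. The probe with the brightest mean red signal stood for a gene. Every member called in any comparison is named with its values, the other tested members by name and range, and those not tested by arrays above background; 1 member, counted in the totals, is not reported here. Up to 4 genes are named from each other list, those called and farthest from 0 first, and Wdr59 beside these. The members and lists were chosen with earlier results of these data known. In simulated data of 12759 genes, 95 of 100 genes changed by 1.5 (log2) and 97 of 100 changed by 2 were called for 200 µM with control, with 2 false calls. The simulated noise was normal and independent between arrays, with no deviation shared by letter and no unmeasured zeros. Changes near the 2-fold limit, as for the genes called at 200 µM other than Slc6a9, were not simulated. The simulation therefore does not show how well such calls hold.

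Letters a to d mark slides, per the file headers, and each carries a further unexplained code in the titles. Same-letter arrays deviated together for 50 µM with control (correlations 0.219 to 0.297), 200 µM with control (0.166 to 0.33), the doses (0.367 to 0.502) and 200 µM with LPS (0.1 to 0.232). For LPS with control the correlations were small but also all positive (0.0962 to 0.114). There each of the 4 LPS arrays correlated best with the control array of its own letter. The normexp alternative (offset 50) used median signals in place of the planned mean signals, which were not used here. The fold given for Slc1a2 sets its mean red signal on the LPS arrays against the lowest signal of any probe above background on each heme-albumin array. Where the gene's own signal was higher, that was used. The red signals were rebuilt from the deposited ratios after quantile normalisation of the mean log signal of red and green. A spot not above background may be brighter than that lowest signal, so the fold is not a strict lower limit. Motifs were searched with Python 3.11.15 and figures drawn with matplotlib 3.10.9.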

Additional observations from a re-analysis of the deposited data

Results flagged for a closer look

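In 6 of 126 groups of 4 arrays, 1 array stood apart from the other three by Dixon's test at the 95% level, where chance gives about 6.3. Control array b of Slc1a2 read -0.04 beside 0.00 on the others, which are unmeasured zeros. LPS array d of Slc1a4 read 2.32 beside 2.05 to 2.09. Control array a of Slc36a4 read 0.14 beside -0.23 to -0.20. Heme-albumin 200 µM array d of Slc38a2 read 0.12 beside 0.08 to 0.09. Heme-albumin 50 µM array d of Slc38a9 read -0.16 beside -0.07 to -0.06. Control array b of Slc7a8 read 0.14 beside -0.23 to -0.21. The changes of Slc1a4 and Slc7a8 after LPS are many times larger than these gaps, and both were called with each array left out.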

How the results depend on the processing

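Calls of single members held in all alternatives and with each array left out for 10 of 16 genes after LPS, 1 of 7 at 200 µM heme-albumin (Slc6a9), 1 of 1 between the doses and 10 of 14 between 200 µM and LPS. The cause was not tested for those lost. After LPS the count of 16 members was 10 among genes above background on all 16 arrays, which tests fewer genes, and 26 (10059 of all genes) without the 2-fold limit; leaving out an array gave 15 to 16. The median of the members was 0.15 with no filter on dim probes. At 200 µM the count of 7 was 2 with normexp (151 of all genes) and 2 with no background subtraction (229 of all genes). It was 4 in red alone, 4 among genes above background on all 16 arrays, 4 on scan day 2 and 12 without the 2-fold limit (2909 of all genes), and leaving out an array gave 4 to 7. The median of 0.065 was 0.12 with no subtraction, -0.014 in red alone, 0 with no filter, -0.03 above background on all 16 arrays and 0.12 on scan day 2. At 50 µM the count of 0 was 1 in red alone, 1 with the replicate block (Slc6a19, 1.03 with adjusted p = 0.037), 1 with the scan day as a block, 2 on scan day 1, 1 with only the 2 groups fitted and 1 without the 2-fold limit (449 of all genes), and 0 to 1 with an array left out. All genes called there were 19 with normexp and 29 with no subtraction, and the members' median of 0.1 was 0.043 and 0.068 in these, 0.0058 with no filter, 0.045 above background on all 16 arrays and 0.058 on scan day 2. Between the doses, all genes called were 31 with normexp, 70 with no subtraction and 971 without the 2-fold limit, and members called were 2 on scan day 2, 4 without the limit and 1 to 2 with an array left out. The median was -0.044 in red alone and -0.011 to 0.068 with an array left out. For 200 µM with LPS, 9 of 25 members were called among genes above background on all 16 arrays, where 27.4% of all such genes were. Without the 2-fold limit it was 22 (10118 of all genes). The replicate block changed no other member call. Red alone moved the median of all genes after LPS to -0.17 from -0.089. Slc1a2, Slc6a4, Slc6a12, Slc6a19, Slc7a3, Slc7a6 and Slc36a2 were not above background on every array, so the size of their changes is less certain.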
